A study of Mus musculus with 3 samples.

Results

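The guidance genes described here are 2 Roundabout receptors (Robo1 and Robo4), 2 Slit ligands (Slit2 and Slit3), 3 Eph receptors (Epha2, Epha4 and Ephb3) and 3 ephrins (Efna1, Efna5 and Efnb1). They were chosen by name as guidance receptors and ligands other than the arteriovenous pair Efnb2 and Ephb4, not by their measured values, and all 10 are among the 17583 genes listed in the deposited table. RNA bound to endothelial ribosomes was isolated from the hearts of 3 adult EC-RiboTag mice, whose age the labels do not give. All 3 mice had the genotype Cdh5-CreERT2;Rpl22tm1.1Psam, in which a tamoxifen-inducible Cre under the endothelial Cdh5 promoter switches the ribosomal protein gene Rpl22 to a hemagglutinin-tagged version. The labels call the libraries biological replicates and place the hearts at day 7 after coronary ligation, whereas the RiboTag methods mention no infarction, so that the state of the hearts is not settled here. Sample titles include "Rz", an abbreviation left unexplained there. The study uses RZ for the remote zone, away from the infarct, and describes purifying such RNA from this zone at the same day for qRT-PCR. It describes sequencing such RNA of cardiac endothelial cells, with n = 3, without naming a zone or an infarction. No source states which material these libraries are, so that remote zone or whole heart is not settled here. The 3 libraries form a single group with no control or input library analysed here, and every value below is a level within the immunoprecipitate of this group.

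Slit proteins are large secreted ligands that bind Roundabout receptors and steer growing axons and migrating cells, and endothelial cells use the same system during vessel sprouting. Robo4 is the Roundabout receptor known for its expression in endothelium, where it stabilizes vessels, while Robo1 is found in many tissues. Eph receptors are receptor tyrosine kinases whose ephrin ligands are anchored in the membrane of the neighbouring cell, by a lipid in the ephrin-A class and by a transmembrane segment in the ephrin-B class, so that both the receptor cell and the ligand cell can signal. In the heart and elsewhere, Eph receptors and ephrins are known for sorting cells at boundaries, including that between arteries and veins.

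The promoters of 3 of these genes are printed because they span the range of CpG content among the 10 and belong to both Roundabout receptors described and to the higher of the 2 Slits. Each is the 250 bases before a transcription start in RefSeq on build GRCm38.p6, read 5′ to 3′ on the gene's strand, with CpG dinucleotides in capitals. Robo4 lies at chr9:37401722-37401971 (plus strand), Robo1 at chr16:72662899-72663148 (plus strand) and Slit3 at chr11:35121206-35121455 (plus strand).
Robo4: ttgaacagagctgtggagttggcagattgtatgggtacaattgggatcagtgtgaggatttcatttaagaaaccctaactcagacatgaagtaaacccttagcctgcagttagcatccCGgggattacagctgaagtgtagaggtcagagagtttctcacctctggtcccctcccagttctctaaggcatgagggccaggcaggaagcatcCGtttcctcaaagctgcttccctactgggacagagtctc
Robo1: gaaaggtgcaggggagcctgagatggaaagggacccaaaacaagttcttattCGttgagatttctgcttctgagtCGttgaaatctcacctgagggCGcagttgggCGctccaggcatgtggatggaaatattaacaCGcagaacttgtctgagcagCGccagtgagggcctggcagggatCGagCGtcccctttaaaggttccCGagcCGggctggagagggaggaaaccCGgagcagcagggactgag
Slit3: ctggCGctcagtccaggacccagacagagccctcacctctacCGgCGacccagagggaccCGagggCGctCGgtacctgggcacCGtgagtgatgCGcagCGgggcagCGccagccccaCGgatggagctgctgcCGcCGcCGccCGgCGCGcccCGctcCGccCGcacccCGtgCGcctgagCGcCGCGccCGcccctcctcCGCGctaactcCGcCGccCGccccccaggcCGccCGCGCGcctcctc
The Robo4 window held 2 CpG dinucleotides, fewer than any of the 10 other windows of the 9 other genes, which held between 9 and 35. The median over 32851 promoter windows of the same length was 6, and 18.8% of them held fewer CpG than that of Robo4, against 64.4% for Robo1 and 97.0% for Slit3. The GC box GGGCGG, searched on both strands, had 6 matches in the Slit3 window and 0 in those of Robo4 and Robo1, and 32.7% of all windows held at least 1. The ETS core GGAA, searched likewise, had 3 matches in Robo4, 4 in Robo1 and 0 in Slit3, in a background where 93.4% of windows held it. The sequence TATAAA had 1 match among the windows of the 10 genes, in Slit2, and 12.4% of all windows held it. These matches are descriptions of the letters in a window, and no binding or chromatin was measured.

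The libraries were alike in the number of reads counted for genes. The steps that rounding left in the low values put the worth of a single read at 0.961 to 1.06 normalized counts. This gives about 6755000 to 7566000 counted reads per library, left after removal of duplicates. The number of reads sequenced was not estimated. To compare genes of unlike length, each normalized count was also divided by the length of the gene's Ensembl canonical transcript in kb. The 12 endothelial markers had a median of 690 ± 13.4 normalized counts per kb (SD, n = 3 mice), with Eng the highest. The 10 cardiomyocyte markers had 565 ± 18.9, with Myl2 the highest, so that RNA of another cell type was abundant in the immunoprecipitate. Removal of duplicate reads compresses levels this high, and both medians rest on the canonical length, so they do not measure enrichment. The genes named here as highest are so per kb of canonical transcript. Per kb of all annotated exons joined, Eng had 362, below Cldn5 with 709, and Myl2 had 179, below Myh6 with 360. The study compared immunoprecipitate with input by qRT-PCR for cell type markers, and no input library was analysed here. Medians per kb were 92.4 ± 20.1 for 9 fibroblast markers (highest Lum), 46.0 ± 5.62 for 10 mural cell markers (highest Des), 23.0 ± 5.49 for 7 of 8 leukocyte markers (highest Lyz2) and 3.29 ± 1.60 for 7 of 8 Schwann cell and neuronal markers (highest Uchl1). The markers Cd3e and Th are not in the table, whose every listed gene reaches at least 4 normalized counts in some mouse. In tissue of this kind, fewer cells of a type and less RNA per cell cannot be told apart.

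Robo4 dominated the Roundabout receptors, and Robo1 rested on few reads. Robo4 (ENSMUSG00000032125, GRCm39 chromosome 9, 37313193 to 37326411, plus strand) reached 1976, 1979 and 1922 normalized counts in mice 1, 2 and 3, a mean of 1959 ± 32.1 (SD, n = 3). The 3 mice were nearly equal, and the coefficient of variation of 1.64% was below the 2.26% that counting alone would give. Duplicate reads had been removed, which limits how far a value at such a level can vary, and the part of this step in the low spread was not tested. Robo1 (ENSMUSG00000022883, chromosome 16, 72105194 to 72842983, plus strand) had normalized counts of 13, 20 and 35, which correspond to 13, 19 and 36 reads. Its lowest value was in mouse 1 and its highest in mouse 3, and the coefficient of variation of 49.6% compares with 20.9% from counting. Per kb, Robo4 had 397 ± 6.51 and Robo1 had 2.46 ± 1.22 (SD, n = 3). The log2 ratio of Robo4 to Robo1 per kb was 8.15, 7.53 and 6.68 in the 3 mice, a mean of 7.45 ± 0.74 or 175-fold (exact sign-flip permutation test, two-sided p = 0.25, adjusted p = 0.281 over 9 planned pairs). By the joined length of all annotated exons the ratio was 8.33 on the log2 scale, or 321-fold. This p in the sign-flip test is the smallest that 3 mice allow, and it applies to every ratio below whose sign was the same in all mice.

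The other Roundabout genes were also far below Robo4. Robo2, which like Robo1 is best known from axon guidance, had normalized counts of 362, 227 and 303, or 33.0 ± 7.50 per kb, and was thus above Robo1 in every mouse. Robo3, a receptor of commissural neurons, had normalized counts of 0, 8 and 13. Of the summed level per kb of the 4 receptors, Robo4 made up 90.6%, 93.3% and 90.7% in mice 1, 2 and 3, Robo2 7.58 ± 1.63% and Robo1 0.569 ± 0.288% (SD, n = 3). By joined exon length, Robo4 made up 96.2 ± 0.687% and Robo2 3.26 ± 0.725%. This alternative for shares was chosen after seeing the data. Robo4 thus held the same place in each mouse, with a coefficient of variation of 1.63% for the summed Roundabout level. Against Cdh5, the endothelial cadherin whose promoter drives the Cre, Robo4 had a log2 ratio per kb of -0.84 ± 0.05 (SD, n = 3), or 0.557-fold, with the same sign in 3 of 3 mice (exact sign-flip permutation test, two-sided p = 0.25, adjusted p = 0.281).

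**Figure D1:**
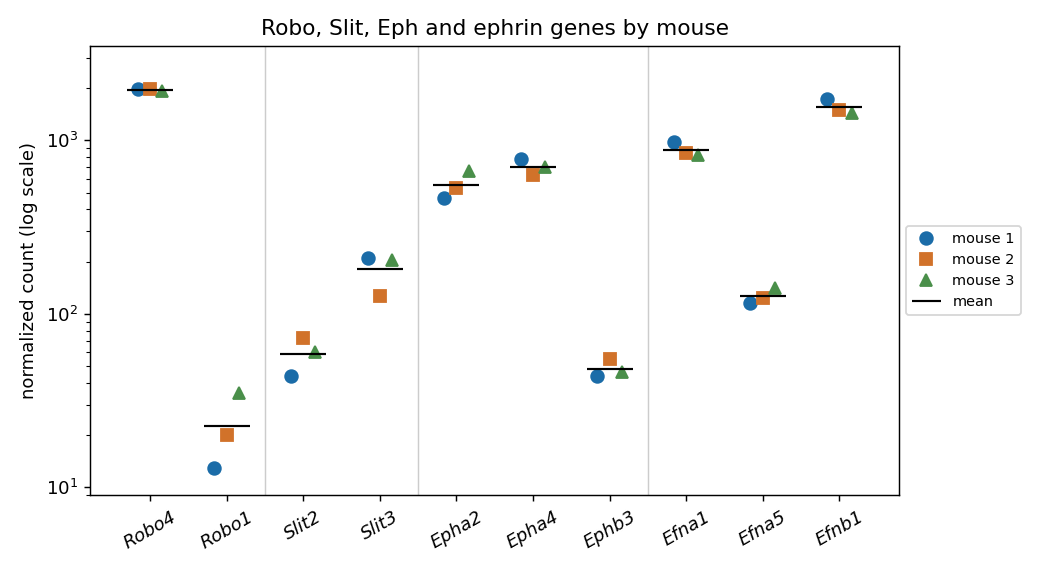
Normalized count (log axis) of each of the 10 guidance genes in the 3 mice, with the mean of the mice as a line. The 3 points of Robo4 nearly coincide, from 1922 to 1979, while those of Robo1 run from 13 to 35.

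The Slit ligands were low, and Slit3 exceeded Slit2. Slit3 (ENSMUSG00000056427, chromosome 11, 35012051 to 35599334, plus strand) had normalized counts of 210, 126 and 205, a mean of 180 ± 47.1 (SD, n = 3). Mice 1 and 3 were close to each other and mouse 2 was low, with a coefficient of variation of 26.1% against 7.41% from counting. Slit2 (ENSMUSG00000031558, chromosome 5, 48140480 to 48465075, plus strand), the ligand best known for acting on endothelial Robo1, had normalized counts of 44, 73 and 60, a mean of 59.0 ± 14.5 (SD, n = 3). Here mouse 2 was the highest and mouse 1 the lowest, with a coefficient of 24.6% against 13.1% from counting. Per kb, Slit3 had 20.2 ± 5.27 and Slit2 had 5.92 ± 1.46 (SD, n = 3). The log2 ratio of Slit3 to Slit2 per kb was 2.41, 0.94 and 1.93, a mean of 1.76 ± 0.75 or 3.39-fold, and Slit3 was the higher in 3 of 3 mice (exact sign-flip permutation test, two-sided p = 0.25, adjusted p = 0.281). Without mouse 2 this log2 ratio was 2.17, and without mouse 1 it was 1.44. By joined exon length, where Slit2 had 1.83 per kb and Slit3 13.8, it was 2.91, or 7.52-fold.

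As shares of the summed level per kb of the Slit family, Slit3 made up 83.6%, 63.5% and 77.2% and Slit2 15.7%, 33.0% and 20.3%. By joined exon length these shares were 91.6%, 78.1% and 87.2% for Slit3 and 7.77%, 18.3% and 10.3% for Slit2. Slit1, which is known mainly from the nervous system, had normalized counts of 1, 4 and 4. The summed Slit level per kb was 26.7 ± 3.96 beside 434 ± 7.08 for the Roundabout receptors, nearly all Robo4 (SD, n = 3). The difference came from Robo4, since Robo2, the next receptor, had 33.0 per kb beside 20.2 for Slit3. By joined exon length Robo2 had 12.5 and Slit3 13.8. These are levels of RNA in the immunoprecipitate, and no binding of Slits to these receptors was measured. Per kb, Slit3 was close to the leukocyte marker median of 23.0 and Slit2 was below it, and the part of other cells in the Slit values was not tested. Among fibroblast markers, Dcn had normalized counts of 813, 579 and 1007 and Lum 458, 309 and 618. Both were lowest in mouse 2 like Slit3, but highest in mouse 3 unlike it. The summed fibroblast list was instead lowest in mouse 1, as were 7 of its 9 genes. Of the 10 mural markers, 3 were lowest in mouse 2 and 6 in mouse 1. Robo2 was also lowest in mouse 2.

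**Figure D2:**
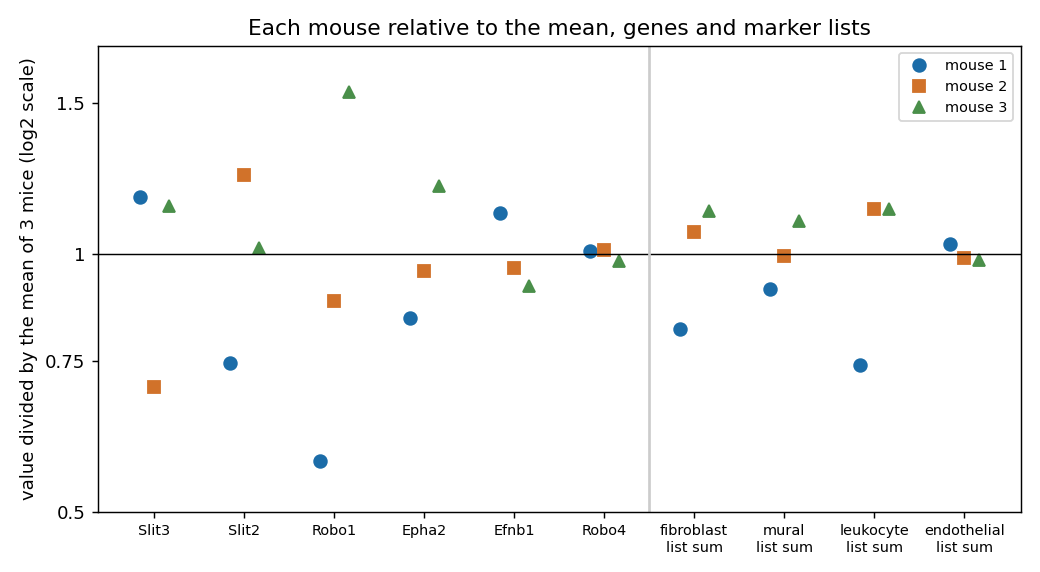
Value in each mouse divided by the mean of the 3 mice (log2 axis) for 6 guidance genes and for the summed normalized counts of 4 marker lists. Slit3 is low in mouse 2 alone, Robo1 and Epha2 are lowest in mouse 1 and highest in mouse 3, and Robo4 and the endothelial list stay near 1.

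Among the Eph receptors, Epha2 and Epha4 were at similar levels and Ephb3 was lower. Epha2 (ENSMUSG00000006445, chromosome 4, 141028551 to 141056695, plus strand), the ephrin-A1 receptor of endothelial cells, had normalized counts of 466, 529 and 665, a mean of 553 ± 102 (SD, n = 3). Mouse 1 was the lowest and mouse 3 the highest, and the coefficient of variation of 18.4% was the largest among the 5 genes whose mean reached 200, against 4.24% from counting. Epha4 (ENSMUSG00000026235, chromosome 1, 77343822 to 77491725, minus strand), which can bind ephrins of both classes, had normalized counts of 781, 632 and 701, a mean of 704.7 ± 74.6. Its order was different, with mouse 1 the highest and mouse 2 the lowest. Per kb, Epha2 had 141 ± 25.9 and Epha4 had 111 ± 11.8 (SD, n = 3). The log2 ratio of Epha2 to Epha4 per kb was -0.06, 0.43 and 0.61, a mean of 0.33 ± 0.35, with Epha2 the higher in 2 of 3 mice (exact sign-flip permutation test, two-sided p = 0.5), so that their order did not hold in every mouse. Epha2, Robo1 and Efna5 were each lowest in mouse 1 and highest in mouse 3. The summed normalized counts of the cardiomyocyte list (20679, 21339 and 24237), the fibroblast list (3225, 4185 and 4438) and the mural list (2760, 3016 and 3316) had the same order of mice, and the leukocyte list (447, 681 and 681) was also lowest in mouse 1. By its median per kb the fibroblast list had 69.7, 108 and 99.1 and the cardiomyocyte list 571, 581 and 544, so that for both the order depended on the summary. The part of these cells in the 3 genes was not tested.

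Ephb3 (ENSMUSG00000005958, chromosome 16, 21023505 to 21042055, plus strand), a receptor for ephrin-B ligands, had normalized counts of 44, 55 and 46, a mean of 48.3 ± 5.86 (SD, n = 3). Its values differed by less than counting error, with a coefficient of variation of 12.1% against 14.4%. Per kb it had 11.5 ± 1.40, and its log2 ratio to Epha2 was -3.60 ± 0.31, negative in 3 of 3 mice. Ephb4, the venous receptor, had normalized counts of 2311, 2289 and 2347 and 531 ± 6.72 per kb, which exceeded Ephb3 by 5.53 ± 0.18 on the log2 scale, or 46.3-fold, in 3 of 3 mice (exact sign-flip permutation test, two-sided p = 0.25 and adjusted p = 0.281 for both ratios).

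Of the summed level per kb of the 9 listed Eph receptors, Ephb4 took 56.1 ± 2.06%, Epha2 14.8 ± 2.09%, Epha4 11.7 ± 1.28% and Ephb3 1.22 ± 0.191% (SD, n = 3). The share of Epha2 was 12.7%, 14.8% and 16.9% in mice 1, 2 and 3. Ephb1, another receptor for ephrin-B ligands, had normalized counts of 591, 577 and 596 and 126 ± 2.11 per kb (SD, n = 3). Its mean per kb lay between those of Epha2 and Epha4. In mouse 1, however, Ephb1 had 126 per kb, above Epha2 with 119 and Epha4 with 123. By joined exon length Ephb1 had 83.5, below Epha4 with 85.5 and Epha2 with 118. Epha7 was uneven, with normalized counts of 139, 69 and 259, highest in mouse 3. Epha1, Ephb2 and Ephb6 had no value above 14 normalized counts, and Epha3, Epha5, Epha6, Epha8 and Epha10 are not in the table. By class, EphA receptors made up 29.1 ± 2.56% and EphB receptors 70.9 ± 2.56% of the summed level per kb.

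Efna1 was the highest of the 10 genes per kb of canonical transcript, and it had the same order of mice as Efnb1. Efna1 (ENSMUSG00000027954, chromosome 3, 89179040 to 89188449, minus strand), a lipid-anchored ligand of Epha2, had normalized counts of 978, 844 and 828, a mean of 883 ± 82.4 (SD, n = 3). Efnb1 (ENSMUSG00000031217, chromosome X, 98179736 to 98192597, plus strand), a transmembrane ligand, had normalized counts of 1740, 1500 and 1429, a mean of 1556 ± 163. Both were highest in mouse 1 and lowest in mouse 3, with coefficients of variation of 9.33% and 10.5%. The summed normalized counts of the endothelial list (28759, 27701 and 27593) had the same order of mice. Of its 12 genes, 6 were highest in mouse 1 and 5 in mouse 2, and 7 were lowest in mouse 3. The part of endothelial RNA content in the order of the 2 ephrins was not tested. Per kb, Efna1 had 596 ± 55.6 and Efnb1 had 470 ± 49.2 (SD, n = 3). The log2 ratio of Efnb1 to Efna1 per kb was -0.34 ± 0.02, negative in 3 of 3 mice (exact sign-flip permutation test, two-sided p = 0.25, adjusted p = 0.281), so the ratio varied less than either gene. This direction depends on the length, since per kb of all annotated exons joined the log2 ratio was 0.60. By that length Efna1 had 257, below Efnb1 with 391 and Robo4 with 369 normalized counts per kb. The libraries also differed in the X-linked gene Xist, with normalized counts of 4, 618 and 869. Its part in the value of the X-linked Efnb1 was not tested.

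Efna5 (ENSMUSG00000048915, chromosome 17, 62911179 to 63188312, minus strand), the other lipid-anchored ephrin, had normalized counts of 116, 123 and 140, a mean of 126 ± 12.3 (SD, n = 3). The 3 mice were about as close as counting allows, with a coefficient of 9.77% against 8.89%. Per kb it had 24.0 ± 2.35, and Efna1 exceeded it by 4.63 ± 0.26 on the log2 scale, or 24.8-fold, in 3 of 3 mice (exact sign-flip permutation test, two-sided p = 0.25, adjusted p = 0.281). By joined exon length this difference was 3.42, or 10.7-fold. The arterial ephrin Efnb2 had normalized counts of 2268, 1966 and 2047 and 418 ± 31.2 per kb, and its log2 ratio to Efnb1 per kb was -0.17 ± 0.08, negative in 3 of 3 mice with the same p and adjusted p.

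Of the summed level per kb of the 8 ephrins, Efna1 made up 37.4%, 37.2% and 36.7% in mice 1, 2 and 3, Efnb1 29.2 ± 0.771%, Efnb2 26.1 ± 0.696% and Efna5 1.51 ± 0.25% (SD, n = 3). The composition of this family thus changed little between mice while its summed level, 1605 ± 137 per kb, had a coefficient of variation of 8.56%. Efnb3 had normalized counts of 186, 139 and 135, and Efna2, Efna3 and Efna4 had no value above 41. The ephrin-A class made up 42.0 ± 0.391% and the ephrin-B class 58.0 ± 0.391%. By joined exon length, an alternative for shares that was chosen after seeing the data, Efnb1 led with 36.9 ± 1.04%, before Efnb2 with 27.3 ± 0.689% and Efna1 with 24.3 ± 0.275%, and the ephrin-A class made up 31.6 ± 0.78% (SD, n = 3). The small spread of the Efna1 share between mice was seen with both lengths. The Eph receptors summed to 949 ± 47.5 per kb (SD, n = 3).

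**Figure D3:**
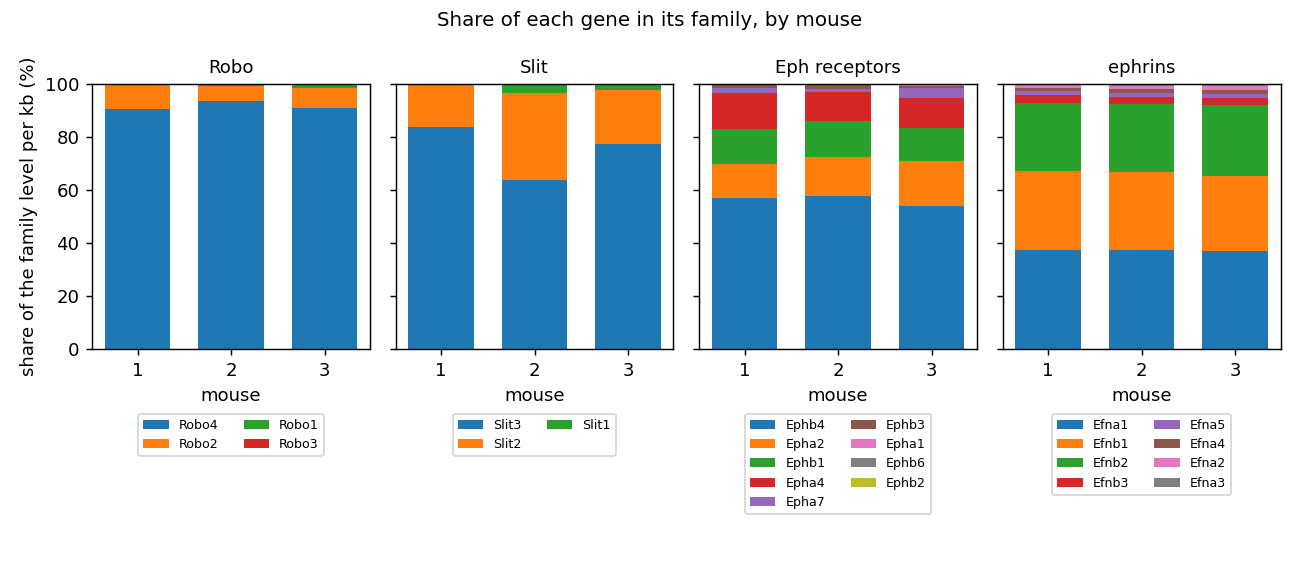
Share (%) of each listed gene in the summed level of its family per kb of canonical transcript, in mice 1, 2 and 3 (stacked bars). The ephrin bars are nearly alike in the 3 mice, whereas the Slit2 share is 33.0% in mouse 2 against 15.7% in mouse 1.

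Ordered by level per kb, the genes ran Efna1, Efnb1, Robo4, Epha2, Epha4, Efna5, Slit3, Ephb3, Slit2 and Robo1. Of the 9 neighbouring pairs in this order, 8 differed beyond the larger SD of the pair, the exception being Efna5 and Slit3, and 7 kept their order in all 3 mice. The order was set by the means of the same mice, so these counts describe it and are no independent test of it. The pairs Epha2 and Epha4, and Efna5 and Slit3, changed order between mice (exact sign-flip permutation test, two-sided p = 0.5 for both). The remaining 7 pairs had p = 0.25 in the same exact test and an adjusted p of 0.321. Among 17475 listed genes with a length, Efna1 ranked 286 per kb, Efnb1 685, Robo4 1178, Epha2 5925, Epha4 6993 and Robo1 15993. Of the 10 genes, 3 (Efna1, Efnb1 and Robo4) exceeded in every mouse 176 normalized counts per kb, the median of the 9356 genes whose mean reached 200 or more, and 25.0% of all genes with a length did so. The count for the 10 genes is near that background.

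**Figure D4:**
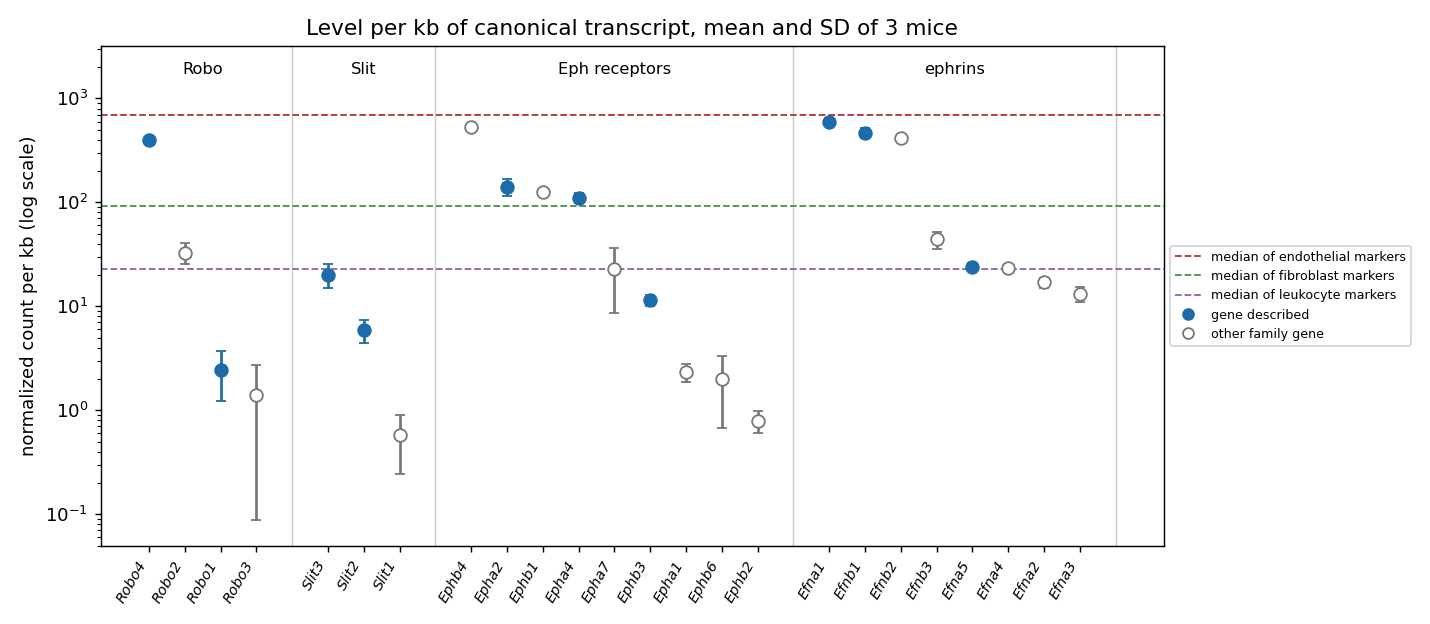
Normalized count per kb of canonical transcript (log axis) of all listed Roundabout, Slit, Eph and ephrin genes, as mean and SD of 3 mice, with the medians of 3 marker lists as dashed lines. Of the genes described, Efna1, Efnb1, Robo4, Epha2 and Epha4 lie between the fibroblast and endothelial medians. Slit3, Ephb3, Slit2 and Robo1 lie below the leukocyte median, and Efna5 lies just above it.

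Robo1, Slit3 and Slit2 had the largest coefficients of variation of the 10 genes. They are also among the 5 genes with the fewest reads, and removal of duplicates limits variation at high levels per kb, so the coefficients are not compared between low and high genes. Of the 5 genes whose mean reached 200 (Robo4, Efnb1, Efna1, Epha4 and Epha2), 0 had a coefficient of variation over 20%, against 8.00% of the 9358 genes with such a mean. With a minimum mean of 100, 1 of 7 genes passed, Slit3, against 11.6% of all genes, and with no minimum 3 of 10 passed, Robo1, Slit2 and Slit3, against 35.9%. At over 15% and a minimum mean of 200, 1 of 5 passed, Epha2, against 14.9%. The median coefficient of variation of the 9358 genes was 7.37%, which all of these 5 genes except Robo4 exceeded. Without mouse 2, Epha2 also passed the threshold of 20%.

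**Figure D5:**
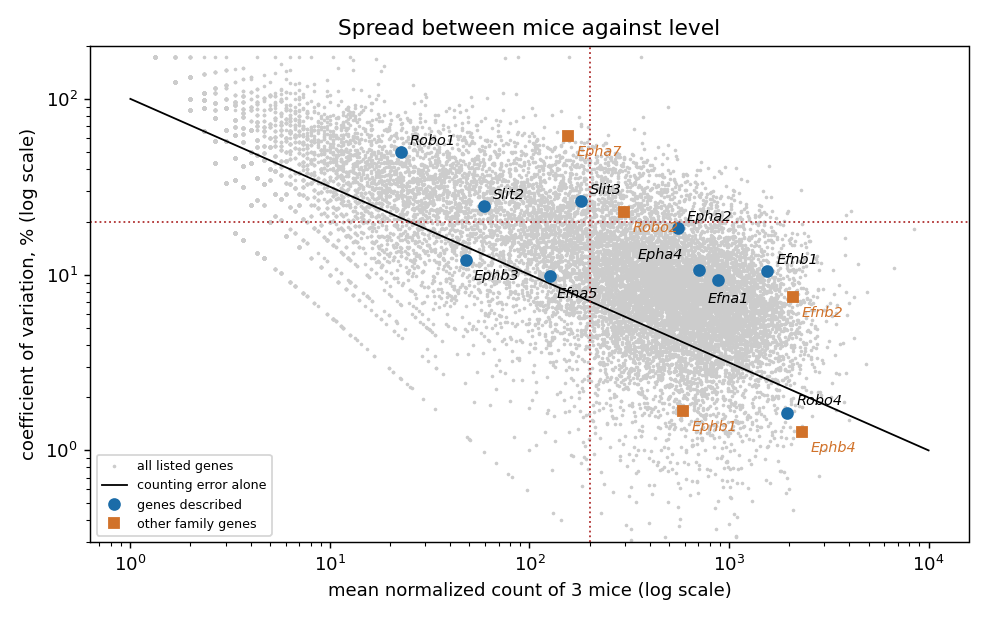
Coefficient of variation between 3 mice (%, log axis) against mean normalized count (log axis) for all listed genes with a spread above 0, the 10 guidance genes and 5 other family genes, with dotted lines at 20% and 200. Robo4 lies near the line for counting error alone, at 1.64%, and Robo1 is at 49.6%.

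Known effectors and cofactors of both systems were nearly all in the table. Of 22 listed Robo effectors and Slit cofactors, 19 had a mean of at least 200, 0 of these varied by over 20%, and 11 exceeded the median of 176 per kb in every mouse. Over the whole table, the corresponding shares were 8.00% varying and 25.0% above that median. Evl, an actin regulator of the Ena/VASP family, was the highest with 703 normalized counts per kb of canonical transcript. Pak1, a kinase downstream of Rac, was the lowest with 3.17. By joined exon length Evl had 395, below Arf6 with 591. Unc5b, a netrin receptor that binds Robo4 and that was picked with its value known, had 336 ± 8.29 per kb (SD, n = 3). Of 21 Eph and ephrin effectors, 20 were listed (Grip1 was not) and 18 had a mean of at least 200. Of these 18, 0 varied by over 20%, and 12 of the list exceeded the same median, beside the same shares of 8.00% and 25.0%. Arhgef15, an exchange factor of the ephexin family known from vascular cells, had normalized counts of 2745, 2622 and 2598. It was the highest with 607 per kb of canonical transcript, whereas its relative Ngef, known from neurons, was the lowest with 2.03. By joined exon length Arhgef15 had 331, below Crk with 390. The adaptor genes Nck1 and Nck2 are in both lists.

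Reads of near-identical relatives could blur such counts, so the canonical transcripts were compared with each other and with the annotated transcriptome of GRCm39. No stretch of 72 bases, the read length before trimming, from the canonical transcripts of the 10 genes was found in a transcript of another locus. The exception was 0.0965% of the stretches of Efna5. To show the similarity that reads had to resolve, 2 shared coding stretches are printed in lower case. That of Ephb1 and Ephb3, with 38 bases, was the longest found in any pair of relatives, and that of Slit2 and Slit3, with 20 bases, was the longest these 2 ligands share.
Ephb1 and Ephb3: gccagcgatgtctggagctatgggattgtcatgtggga
Slit2 and Slit3: atcagctgcattgaagatgg
Both stretches are shorter than an untrimmed read of 72 bases. Reads were trimmed before alignment, and the part of shorter reads in the counts was not tested.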

How the data were processed

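Ribosome-associated RNA of 3 EC-RiboTag hearts, grouped by sample title as 1 group, was sequenced in single-end mode with 72-base reads. According to the study's methods and processing notes, the authors trimmed reads with Trimmomatic 0.39, aligned them with STAR 2.7.11a to mm39 (GRCm39), removed duplicate reads with Picard 3.1.1, counted per gene and strand with featureCounts 2.0.4 and normalized with DESeq2 1.36.0. The deposited values are a score in that the authors divided the counts by size factors and rounded the result to whole numbers. They are not raw counts, so the planned dispersion estimate for counts was not run. Removal of duplicates limits each base of a transcript to about 1 read and compresses the highest levels per kb, such as that of Efna1.

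Means, SDs and coefficients of variation were computed over mice with Python 3.11.15, numpy 2.4.6 and pandas 2.3.3, and figures were drawn with matplotlib 3.10.9. Normalized counts were divided by the length of the Ensembl canonical transcript, found in GENCODE for 17475 genes (99.39%). Depth, as reads counted for genes, was estimated from the whole numbers that rounding skips, a step tested on simulated data. Counting error rests on this estimate and covers counting only. Ratios within a mouse, with no pseudocount, were tested two-sided by sign flips over the mice (exact permutation test). It cannot give p below 0.25 with 3 mice or 0.5 with 2. It was used with Benjamini-Hochberg adjustment over 9 planned and 9 neighbouring pairs. Promoters came from RefSeq (GRCm38.p6), whose coordinates are not those of the table.

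The genes were chosen by name and not by level. They, the lists, the pairs and the thresholds were set with earlier results of these data known, so that the planned pairs were not chosen blind to the data. Named are the 10 genes, all listed relatives, the highest and lowest gene of each effector list, and the highest of each marker list. Highest and lowest are by level per kb of canonical transcript. Cdh5 belongs to a planned pair. Dcn, Unc5b, Nck1, Nck2, Arf6, Crk, Cldn5, Myh6 and Xist were added with their values known. Alternatives were TMM scaling (trims of 30% for log ratios and 5% for levels), equal totals, joined exon length, no length, pseudocounts of 1 and 5, other thresholds of variation, and leaving out each mouse.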

Additional observations from a re-analysis of the deposited data

How the results depend on the processing

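Lengths decided more than scaling or single mice. The median level per kb of the 10 genes, 67.2, was 54.8 by joined exon length and 65.2 to 69.9 with a mouse left out. The number of genes with a coefficient of variation over 20%, 0 of 5, was 1 with a minimum mean of 100, 3 with no minimum mean, 1 at over 15%, and 0 to 1 with a mouse left out. Over the whole table the count was 749 genes, against 1273, 6305 and 1399 under these thresholds and 455, 921 and 812 without mice 1, 2 and 3. Of the 9 neighbouring pairs in the order per kb, 8 remained in order by joined exon length and 4 with no division by length. By joined exon length, the log2 ratio of Efnb1 to Efna1 turned from -0.34 to 0.60 and that of Efna1 to Efnb1 to -0.60. By that length the mean share of Slit2 in its family went from 23.0% to 12.1%, and that of Robo2 from 7.58% to 3.26%. The share of Ephb4 went from 56.1% to 59.8%. With no division by length, log2 ratios turned for Efnb1 to Efna1 (0.82, and -0.82 in the other direction), Efnb1 to Robo4 (-0.34), Epha2 to Epha4 (-0.36), Efna5 to Slit3 (-0.48), Ephb3 to Slit2 (-0.26) and Efnb2 to Efnb1 (0.43), since longer transcripts yield more reads. With a pseudocount of 5 the log2 ratio of Robo4 to Robo1 was 7.13. TMM scaling and scaling to equal totals moved no level of these genes by more than its SD and left the number of varying genes among them at 0, and neither pseudocount turned any of the 9 planned ratios. No paired analysis was possible because the libraries form a single group. With 3 mice no p below 0.25 can be reached, and for Robo1, at 13 to 36 reads, differences between mice were limited by depth as well as by the spread between mice.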
